A study of Rattus norvegicus with 21 samples.

Results

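Gene expression in the dentate gyrus was set side by side between stressed rats given the antidepressant fluoxetine and untreated rats. The comparison was taken from the sample titles and holds 6 animals, 3 on each side, measured on 9 arrays, of 18 animals and 21 arrays in the whole series. All were wild type male Wistar rats aged 2 months. The fluoxetine animals were kept under unpredictable chronic mild stress for 6 weeks, and in the last 2 weeks they received fluoxetine at 10 mg/kg in ultra-pure water by a daily intraperitoneal injection. The control animals had neither stress nor drug. A stress alone group of 3 rats, with the same 6 weeks and no drug, is given beside them where it bears on a value. The other 3 groups, which share the fit and appear beside some values, went through the same 6 weeks of stress with imipramine or tianeptine at 10 mg/kg or agomelatine at 40 mg/kg in the last 2 weeks. The labels' protocols speak of injections for the drug groups only, so in fluoxetine against control the stress, the drug and the injections cannot be told apart.

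The dentate gyrus is the entry field of the hippocampus, where granule neurons receive cortical input and where new granule neurons are still formed in adult rodents. Fluoxetine blocks the serotonin transporter on the terminals of raphe neurons, whose cell bodies lie outside the hippocampus, so that released serotonin acts longer on its receptors. Stress hormones act in the same tissue through the glucocorticoid and mineralocorticoid receptors, and long treatment with fluoxetine is known in rodents for effects on the birth and maturation of granule neurons.

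Expression was read on Affymetrix rat Gene ST arrays as log2 values, so that a difference of 1 is a doubling, and values of different probe sets are not compared with each other. Each control animal was run on a first array and on a repeat array, which the labels call a technical replicate, and both were averaged before any comparison. Differences are means of fluoxetine minus means of control on the log2 scale with their standard error (SE), and a gene counts as called at an adjusted p under 0.05 in limma (Benjamini-Hochberg over 11940 genes). The samples are whole tissue, in which fewer cells of a type and less RNA per cell cannot be told apart.

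Of 15 listed granule neuron genes 9 were among the tested genes, and Tdo2 and Dsp were not. The 9 averaged a log2 level of 10.76 to 10.93 in control and 10.87 to 10.89 in fluoxetine animals. Only genes above a signal limit were tested, so this level is no test of the labelled tissue. Of the 9 genes 6 were above 0, with a median difference of 0.083, and 0.139 without control 2. Control 2 was the highest control animal in that list. The 12 tested genes of the choroid plexus, a neighbouring epithelium that dissection can take along, were low in all 6 animals, at 7.31 to 7.41 in control and 7.30 to 7.31 in fluoxetine. Among the stress alone animals the choroid plexus level reached 8.18 in 1 animal, with Ttr, the transthyretin gene of that epithelium, at 11.77 in stress 1 against 7.14 to 7.66 in the control and 7.14 to 7.52 in the fluoxetine animals. Fluoxetine 3 stood apart from the other fluoxetine animals. The arrays of fluoxetine 1 and 2 correlated best with each other (r = 0.997 over genes), that of fluoxetine 3 best with the first array of control 1 (r = 0.993), and limma's array weights were 2.13 and 1.98 for fluoxetine 1 and 2 and 0.335 for fluoxetine 3. Control 2 was low in the marker lists of hippocampal CA field neurons and of interneurons. Stress 3 was high in the same lists, with a CA field level of 9.58 against 8.87 to 9.08 in the control animals. Several values below are also given without fluoxetine 3 or control 2.

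No gene passed the test between fluoxetine and control animals. Of 11940 genes 0 (0%) were called by limma, and 16 genes shared the lowest adjusted p, 0.683. An unadjusted p under 0.05 was found in 556 genes (4.66%), where 597 (5%) would be found if all p-values were equally frequent. Of these, 348 (2.91%) were higher and 208 (1.74%) lower with fluoxetine. With equal array medians the split was 260 higher and 238 lower. In a fit of the fluoxetine and control animals only, 697 genes had an unadjusted p under 0.05, and without the agomelatine group 798 did. Neither of these fits called a gene. In 1393 genes (11.7%) the 3 fluoxetine animals did not overlap with the 3 control means, 794 (6.65%) on the higher and 599 (5.02%) on the lower side. In 317 genes (2.65%) the fluoxetine animals lay outside all 6 control arrays, 171 (1.43%) above and 146 (1.22%) below.

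The differences were small as well as uncalled. The median size over all genes was 0.058, 96.1% of the genes differed by less than 0.2, 7 genes by more than 0.5 and none by more than 1. The median SE was 0.085, and the median 95% confidence interval reached 0.177 to either side, so a shift of that size or below was within the error for a typical gene. The median SD between animals was 0.075 in the control, 0.085 in the fluoxetine and 0.083 in the stress alone group. It was 0.118 in the agomelatine group, which shares the fit. Pop5, a subunit of the RNA processing enzymes RNase P and MRP, had the highest difference of all genes (0.92 ± 0.41 SE), but its animals overlapped between the groups; it was chosen here after its value was seen.

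The count of called genes depended on the control arrays and on the weight of each animal. Against the first control arrays alone 0 genes were called, with 480 at an unadjusted p under 0.05, and against the repeat arrays alone 78 were, 65 higher and 13 lower, with 1729 at an unadjusted p under 0.05. Against the first arrays 70 of those 78 genes had a smaller difference by a factor of more than 2, and 12 of the 78 had the opposite sign. Averaged over the 3 control animals, the repeat minus first array difference had a median size of 0.082 per gene, against 0.058 for fluoxetine minus control. Without fluoxetine 3 limma called 0 genes, with an adjusted p of 0.133 at the lowest and 891 genes at an unadjusted p under 0.05. With array weights, which let fluoxetine 3 count less, 23 genes were called, 13 higher and 10 lower. Among them were Blvra, Klf10, Kcng1, Pcdh20, Scn3a, Sgk1, Banf1, Neurod2, Kcna4, Foxo3, Ptgs2, Galnt3, Ptma, Hyou1 and Rgs5, which are described below. Unless stated otherwise, calls below refer to the fit without weights and with both control arrays averaged.

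**Figure D1:**
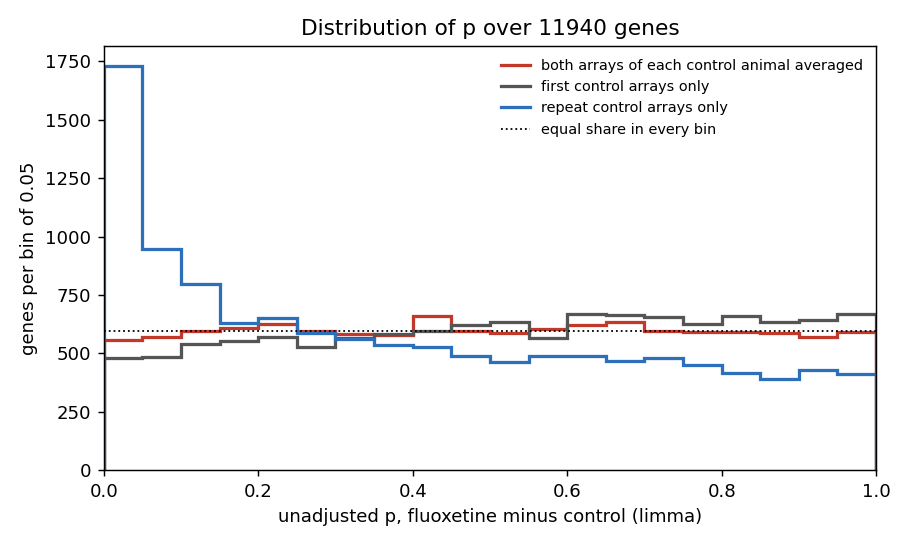
Number of genes (vertical axis) in each bin of 0.05 of the unadjusted p of fluoxetine minus control (horizontal axis, limma, 11940 genes), with both arrays of each control animal averaged, with the first control arrays and with the repeat control arrays; the dotted line is an equal share in every bin, 597 genes. The lowest bin holds 556 genes with both arrays averaged, 480 with the first and 1729 with the repeat arrays.

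The genes described next are those with the smallest p among genes whose animals did not overlap, 10 on each side, and none of them was called. The higher genes differed by 0.26 to 0.47. In 9 of the 10, all but Blvra, the fluoxetine animals lay above all 6 control arrays. The lower genes differed by 0.22 to 0.46, and in 6 of the 10 the fluoxetine animals lay below all 6 control arrays, the exceptions being Foxo3, Il6r, Neurod2 and Rpl39. As these genes were picked for small p and for no overlap, their position against the controls is a description.

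Several of the higher genes belong to signalling. Sgk1, the serum and glucocorticoid regulated kinase, measured 10.69, 10.65 and 10.70 in the control animals and 11.00, 11.00 and 10.93 in the fluoxetine animals, a difference of 0.30 ± 0.07 (adjusted p = 0.683 in limma). The control animals lay within 0.1 of each other, and each fluoxetine animal stood above all of them. In stress alone Sgk1 was at 10.93, 11.03 and 10.83, which overlaps with the fluoxetine values, and fluoxetine minus stress was 0.05 ± 0.07. Against the same control animals Sgk1 differed by 0.19 with imipramine, 0.19 with tianeptine and 0.77 with agomelatine, which was given at 40 mg/kg and not at 10. The agomelatine animals also differed in marker genes. The mean of the mature oligodendrocyte genes, minus the members' means over all animals, was 0.90, 0.41 and 0.43 in them. In control it was -0.17, -0.07 and -0.06. Neither the part of the dose nor that of the tissue content in the Sgk1 value was tested. Ptgs2, the inducible cyclooxygenase that makes prostaglandins in excitatory neurons, was at 10.51, 10.65 and 10.68 in control, 11.09, 10.90 and 10.87 in fluoxetine and 10.84, 10.79 and 10.59 in stress alone animals, with fluoxetine minus control at 0.34 ± 0.09. Its fluoxetine animals were the highest of these 9 animals, but the imipramine animals, at 10.89, 11.01 and 10.95, lay within the fluoxetine range. Against the same control animals Ptgs2 differed by 0.34 with imipramine, 0.19 with tianeptine and 0.12 with agomelatine. Spry2, an inhibitor of growth factor receptor signalling, was at 9.77, 9.99 and 9.86 in control and 10.18, 10.04 and 10.20 in fluoxetine animals (0.26 ± 0.06), and Rasl11a, a small GTPase of the Ras family, had the largest difference of the higher genes (0.47 ± 0.12).

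Ion channel and surface protein genes formed a second part of the higher genes. Kcna4, the A-type potassium channel subunit Kv1.4, measured 9.73, 9.81 and 9.63 in control and 10.26, 10.06 and 9.97 in fluoxetine animals (0.37 ± 0.09). Scn3a, a voltage-gated sodium channel gene, differed by 0.30 ± 0.08, and a second probe set of Scn3a by 0.13. Pcdh20, a protocadherin of cell adhesion, differed by 0.27 ± 0.07 and Gpr12, an orphan receptor coupled to G proteins, by 0.29 ± 0.08 (0.18 against the first control arrays). In Blvra, which encodes biliverdin reductase A, fluoxetine 3 at 7.79 lay close to the controls (7.62, 7.55 and 7.68), while fluoxetine 1 and 2 were at 8.24 and 8.15 (0.44 ± 0.10, and 0.29 against the first control arrays). Stress minus control was of like size for Blvra (0.41 ± 0.10), and fluoxetine minus stress was 0.03 ± 0.10. Banf1, a DNA binding protein of the nuclear envelope, was at 10.71, 10.77 and 10.69 in control and 10.99, 11.00 and 11.05 in fluoxetine animals (0.29 ± 0.06). Compared with the first arrays alone it differed by 0.09, and with the repeat arrays alone by 0.50.

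Of the lower genes 3 encode transcription factors. Klf10, a zinc finger factor induced by TGF-beta and by activity, was at 9.56, 9.39 and 9.49 in control and 9.02, 9.01 and 9.27 in fluoxetine animals, a difference of -0.38 ± 0.09. Each fluoxetine animal was below each control array, and stress alone lay at 9.15, 9.24 and 9.48, overlapping with both. Neurod2, a factor of excitatory neuron differentiation, measured 11.03, 11.18 and 10.98 against 10.77, 10.73 and 10.89 (-0.26 ± 0.06). For Neurod2 stress minus control was -0.19 ± 0.06 and fluoxetine minus stress -0.07 ± 0.06. Foxo3, a forkhead factor that kinases of the AKT and SGK families phosphorylate, measured 10.68, 10.77 and 10.65 against 10.45, 10.29 and 10.60 (-0.26 ± 0.07). In all 3 of these genes the fluoxetine animals lay below the control means, by the choice made.

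The remaining lower genes code for receptors, channels and enzymes. Il6r, the interleukin-6 receptor, was at 9.40, 9.61 and 9.17 in control and 9.15, 8.92 and 8.92 in fluoxetine animals (-0.40 ± 0.10), so that control 3 and fluoxetine 1 nearly met. Kcng1, a potassium channel subunit that modifies other channels and forms none alone, was at 11.20, 11.10 and 11.22 in control, 10.86, 10.81 and 11.06 in fluoxetine and 11.16, 11.21 and 11.11 in stress alone. Its difference was -0.26 ± 0.07 from control and -0.25 ± 0.07 from stress alone, and the fluoxetine animals were the lowest of the 9. Against the same control animals Kcng1 differed by -0.09 with imipramine, -0.08 with tianeptine and -0.37 with agomelatine. Ptpn1, the tyrosine phosphatase PTP1B that dampens insulin and leptin signalling, was at -0.22 ± 0.06, Galnt3, an enzyme that starts O-glycosylation, at -0.34 ± 0.09 and Cntnap5b, of the contactin-associated protein family, at -0.46 ± 0.11. Stress minus control was 0.03 for Ptpn1, -0.09 for Galnt3 and -0.34 for Cntnap5b. Against control Cntnap5b was also at -0.39 with imipramine, -0.56 with tianeptine and -0.69 with agomelatine. Ptma, prothymosin alpha, had the smallest p of all genes (0.000134 unadjusted in limma, adjusted p = 0.683), with 11.69, 11.79 and 11.78 in control and 11.57, 11.56 and 11.45 in fluoxetine animals (-0.22 ± 0.05). It differed by -0.12 from the first and by -0.33 from the repeat control arrays. Ptma and Rpl39 have near-identical copies in the genome, so their probe sets are uncertain in what they measure.

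Rpl39, a protein of the large ribosomal subunit, shows how the control arrays set a sign. It was at 11.77, 11.85 and 11.77 on the first and at 12.52, 12.59 and 12.48 on the repeat control arrays, and at 11.95, 11.95 and 11.93 in the fluoxetine animals. Fluoxetine minus control was therefore -0.22 ± 0.06 with both arrays averaged, 0.15 against the first and -0.58 against the repeat arrays.

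**Figure D2:**
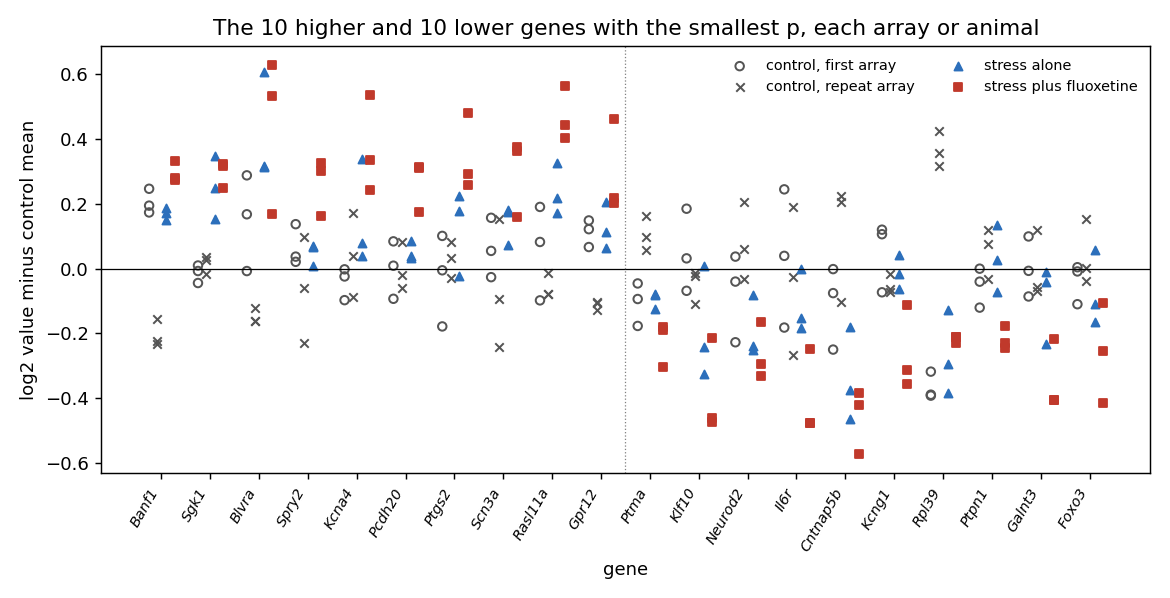
Log2 value minus the control mean (vertical axis) for the 10 higher and 10 lower genes with the smallest p (horizontal axis), with each first control array, repeat control array, stress alone animal and stress plus fluoxetine animal as a point. The fluoxetine animals of Sgk1 lie between 10.93 and 11.00 on the log2 scale, above all control arrays, while for Rpl39 they lie between the first and the repeat control arrays.

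Genes that respond to glucocorticoids through the corticosteroid receptors were split. Of 22 tested members 9 were above and 13 below 0, with a median of -0.011, beside 54.3% above 0 and a median of 0.009 over all genes, and 0 were called. The median was 0.017 against the repeat control arrays and -0.064 without fluoxetine 3. Beside Sgk1, the higher members with an unadjusted p under 0.05 were Mt1, a metal binding metallothionein (0.21 ± 0.08, and 0.14 without fluoxetine 3), and Cebpd, a C/EBP transcription factor (0.17 ± 0.07). Arrdc2 was the 1 lower member at such a p (-0.19 ± 0.08). Fkbp5, a co-chaperone that lowers the sensitivity of the glucocorticoid receptor, was at 9.79, 9.86 and 9.91 in control and 10.03, 9.86 and 9.49 in fluoxetine animals (-0.06 ± 0.12), the fluoxetine animals covering the whole control range. Tsc22d3, the glucocorticoid-induced leucine zipper gene GILZ, was at 0.05 ± 0.10.

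The receptors and enzymes of the stress hormone axis lay close to the controls. Nr3c1, the glucocorticoid receptor, differed by 0.05 ± 0.06 (95% confidence interval -0.09 to 0.18) and Nr3c2, the mineralocorticoid receptor, by -0.07 ± 0.06 (-0.20 to 0.05). Of 14 tested genes of corticosteroid and stress peptide signalling 12 were above 0, with a median of 0.066, and 0 were called. Among them Avpr1b, a vasopressin receptor, had fluoxetine values of 7.89, 7.93 and 7.79 against 7.76, 7.60 and 7.76 (0.16 ± 0.10), Crhbp, which binds corticotropin-releasing hormone, differed by 0.17 ± 0.11 (0.10 without control 1) and Hsd11b1, which regenerates active corticosteroid in cells, by 0.13 ± 0.07.

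Dusp1 and the activity-regulated genes Nr4a1 and Arc had fluoxetine means near the control means and stress alone means above both. This was not particular to fluoxetine. Against control, imipramine and tianeptine were at -0.12 and -0.19 for Dusp1, 0.12 and 0.03 for Nr4a1 and 0.02 and 0.04 for Arc. Agomelatine was at 0.20, 0.62 and 0.37 for Dusp1, Nr4a1 and Arc, in animals that also differed in oligodendrocyte genes, as given for Sgk1. Dusp1, a phosphatase that switches off MAP kinases and responds to glucocorticoids and to neuronal activity, was at 9.36, 9.26 and 9.25 in control, 9.05, 9.13 and 9.47 in fluoxetine and 9.86, 9.66 and 9.84 in stress alone animals. Fluoxetine 1 and 2 were below and fluoxetine 3 above the controls, and the stress alone animals stood above all of them. Fluoxetine minus control was -0.07 ± 0.11 (95% confidence interval -0.31 to 0.16), and fluoxetine minus stress was -0.57 ± 0.11 (adjusted p = 0.450 in limma, the smallest of that contrast). Both contrasts use the same fluoxetine animals, and stress minus control (0.50 ± 0.11) shares its animals with both.

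Nr4a1, an orphan nuclear receptor made within minutes of activity, was at 8.22, 8.09 and 8.14 in control, 8.12, 8.09 and 8.46 in fluoxetine and 8.39, 8.50 and 8.96 in stress alone. It differed by 0.07 ± 0.13 from control (-0.19 to 0.34) and by -0.40 ± 0.13 from stress alone (adjusted p = 0.934 in limma). Arc, a synaptic regulator of AMPA receptor uptake, was at 9.22, 9.25 and 9.19 in control, 9.11, 8.98 and 9.48 in fluoxetine and 9.39, 9.52 and 9.78 in stress alone, with -0.03 ± 0.14 from control (-0.33 to 0.27). In Dusp1, Nr4a1 and Arc alike fluoxetine 3 was the highest fluoxetine animal, and in Nr4a1 and Arc it lay within the range of stress alone. The intervals leave room for differences from control of 0.16 to 0.34 upward, so the values do not show that these genes are at the control level. Fluoxetine minus stress called 0 genes in all (0%), with 619 at an unadjusted p under 0.05 (5.18%).

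The promoters of Dusp1, Nr4a1 and Ptgs2 are shown as examples. In value, Dusp1 and Nr4a1 were lower with fluoxetine than in stress alone, and Ptgs2, also an activity-regulated gene, was higher. The windows of other genes lower than in stress alone, such as Arc and Gadd45b, were not looked at one by one. A link between the motif and the direction was therefore not tested. Each sequence is the 250 bases before the RefSeq gene start (assembly GRCr8), 5′ to 3′, and capitals mark the core of the cAMP response element, TGACG or its reverse complement CGTCA, on either strand.
Dusp1 chr10:17184603-17184852 (+ strand): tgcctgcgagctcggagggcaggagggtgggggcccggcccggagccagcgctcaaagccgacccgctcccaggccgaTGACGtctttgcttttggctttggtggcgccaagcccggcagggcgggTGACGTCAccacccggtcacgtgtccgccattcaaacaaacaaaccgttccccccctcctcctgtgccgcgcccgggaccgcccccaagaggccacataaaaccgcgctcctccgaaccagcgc
Nr4a1 chr7:134259888-134260137 (+ strand): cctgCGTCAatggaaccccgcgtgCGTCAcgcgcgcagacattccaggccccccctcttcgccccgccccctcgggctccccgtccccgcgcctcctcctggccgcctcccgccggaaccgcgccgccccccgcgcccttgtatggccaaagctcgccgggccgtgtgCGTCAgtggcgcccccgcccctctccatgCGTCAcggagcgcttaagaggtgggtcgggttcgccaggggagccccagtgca
Ptgs2 chr13:64713813-64714062 (+ strand): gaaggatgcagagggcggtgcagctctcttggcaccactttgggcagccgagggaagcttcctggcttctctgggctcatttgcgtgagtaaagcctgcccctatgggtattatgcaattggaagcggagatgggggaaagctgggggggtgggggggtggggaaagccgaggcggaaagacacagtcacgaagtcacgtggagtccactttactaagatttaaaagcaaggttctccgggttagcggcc
The Dusp1 window holds 3 matches, which begin 172, 124 and 121 bases before the start, and the last 2 of them overlap. The Nr4a1 window holds 4, beginning 246, 226, 82 and 53 bases before the start, and the Ptgs2 window holds no match. The core occurs in 25.9% of the 10368 promoter windows of tested genes and in 18.2% of all 33469 windows. The letters AGAACA or TGTTCT, of which elements bound by the glucocorticoid receptor are built, were in none of the 3 windows and in 11.5% of the windows of tested genes. A match is a run of letters and was not tested as a binding site.

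The lists of activity-regulated genes were mixed. Of 20 tested transcription factors 13 were below 0 (median -0.071), with Klf10 the single member at an unadjusted p under 0.05. Egr1 was at 0.13 ± 0.09, Npas4, a factor made only upon calcium entry in neurons, at -0.13 ± 0.12 and Fos at -0.09 ± 0.09, and the 95% confidence interval of each included 0. Of 28 effectors 18 were above 0 (median 0.043, and 0.008 without control 2), led by Ptgs2 and Spry2. Gadd45b, which takes part in activity-induced DNA demethylation, stood on the other side, at 8.97, 8.91 and 9.01 in control and 8.60, 8.75 and 8.78 in fluoxetine animals (-0.25 ± 0.08), with 8.96, 8.96 and 9.08 in stress alone. Neither list had a called gene.

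**Figure D3:**
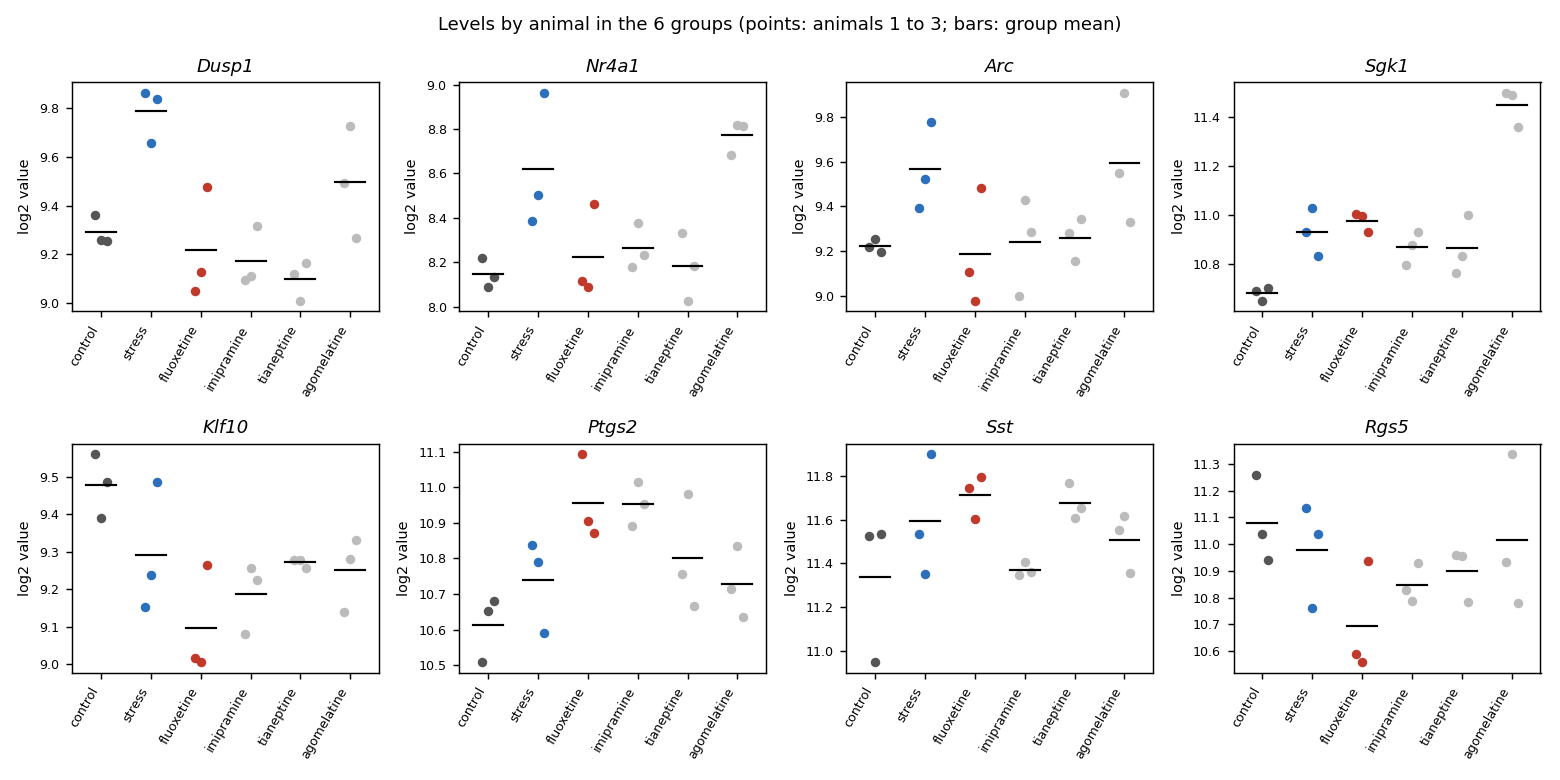
Log2 values (vertical axes) of 8 genes by animal in the 6 groups of the series, with a bar at each group mean. Dusp1, Nr4a1 and Arc have fluoxetine means of 9.22, 8.22 and 9.19 beside control means of 9.29, 8.15 and 9.22 and stress alone means of 9.79, 8.62 and 9.57, while Sgk1 lies at 10.68 in control and at 10.98 in fluoxetine animals.

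The direct target of fluoxetine and the serotonin receptors gave no called gene. The transporter gene Slc6a4, whose messenger RNA is made in the raphe, was near the low end of the tested range, at 7.06, 6.85 and 6.99 in control and 6.91, 7.05 and 7.17 in fluoxetine animals (0.08 ± 0.09). Htr1a, the inhibitory serotonin receptor of granule neurons, differed by 0.04 ± 0.09 (-0.15 to 0.24) and Htr4, a receptor that raises cAMP in them, by -0.06 ± 0.08. Of 28 tested genes of the serotonin and monoamine system 19 were above 0, with a median of 0.040 that was 0.007 without control 2 and 0.023 without fluoxetine 3. Drd2, a dopamine receptor, was near the low end as well, at 6.78, 6.74 and 6.84 in control and 6.95, 6.93 and 7.06 in fluoxetine animals. Its difference was 0.19 ± 0.08, and 0.12 against the first control arrays, without overlap (6.65% of all genes on the higher side). On the lower side 2 members did not overlap (5.02% of all genes), Htr3b (-0.15 ± 0.08) and Adra2c (-0.18 ± 0.10).

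Some receptor values came from control 2. Htr2a was at 9.65, 7.92 and 8.73 in control and 9.33, 9.13 and 9.02 in fluoxetine animals, a difference of 0.39 ± 0.33 that was -0.03 without control 2. Htr1f was at 8.51, 7.77 and 8.57 in control and 8.55, 8.60 and 8.77 in fluoxetine animals (0.36 ± 0.15, and 0.10 without control 2). In the same animal the list of CA field pyramidal neurons scored -0.30, against -0.09 in the other controls and -0.09 to -0.03 with fluoxetine, where the score is the mean of the members' log2 values minus their means over all animals. Its part in these values was not tested. For that list itself 11 of 14 members were above 0 (median 0.082, and 0.023 without control 2).

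Neurotrophin genes and genes of granule neuron maturation were mixed. Bdnf, the neurotrophin gene, was at 8.50, 8.80 and 8.84 in control and 9.06, 8.98 and 8.66 in fluoxetine animals, 0.19 ± 0.12 (-0.06 to 0.43), so that fluoxetine 3 lay within the control range. The difference was 0.31 without fluoxetine 3, 0.11 without fluoxetine 1 and 0.08 without control 1. Its receptor gene Ntrk2 was at 0.06 ± 0.05. Gfra1, a receptor for GDNF, measured 9.71, 9.68 and 9.73 against 9.78, 9.84 and 10.07 (0.19 ± 0.08, and 0.11 without fluoxetine 3), without overlap. Of 27 tested growth factor genes 17 were above 0 (median 0.038, 0.004 without fluoxetine 3 and 0.012 without control 2), and the lowest of them were Flt1 and Kdr, the vascular receptors for VEGF described below with the vessel genes, while Vegfa itself was at -0.07 ± 0.08.

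Calb1, the calcium buffer of mature granule neurons, was at 10.77, 10.77 and 10.63 in control and 10.99, 10.99 and 10.71 in fluoxetine animals (0.17 ± 0.08, and 0.27 without fluoxetine 3). Fluoxetine 3 lay within the control range. Among genes of young neurons Sox11, a factor of immature neurons, was at 8.75, 8.84 and 9.15 in control and 8.68, 8.69 and 8.62 in fluoxetine animals (-0.25 ± 0.10) and at 8.98, 8.89 and 9.13 in stress alone. Its difference from control was -0.10 against the first and -0.39 against the repeat control arrays, and -0.13 without control 3. Dcx, the microtubule protein of migrating young neurons, was at 0.14 ± 0.13, and was -0.010 without fluoxetine 3, and Tubb3, neuronal tubulin, at 0.19 ± 0.08. For these genes stress minus control was 0.18 ± 0.13 (Dcx) and 0.20 ± 0.08 (Tubb3). Of 17 tested genes of immature neurons and neurogenesis 11 were above and 6 below 0 (median 0.015, and -0.010 without fluoxetine 3), and Mki67, the proliferation marker, was not among the tested genes. Markers of immature neurons did not share a direction.

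Interneuron genes and genes of GABA synthesis lay higher in value. Of 16 tested interneuron and neuropeptide genes 13 were above 0, with a median of 0.174 beside 0.009 over all genes, 4 with an unadjusted p under 0.05 and 0 called. Sst, the neuropeptide somatostatin of hilar interneurons, was at 11.53, 10.95 and 11.53 in control and 11.74, 11.60 and 11.79 in fluoxetine animals (0.38 ± 0.13), above all control arrays, and its difference was 0.18 without control 2. Npy, neuropeptide Y, was at 10.47, 10.46 and 10.72 against 10.94, 11.03 and 10.58 (0.30 ± 0.12), with fluoxetine 3 inside the control range, and its difference was 0.13 against the first and 0.47 against the repeat control arrays. Gad1, which makes GABA, was at 10.77, 10.54 and 10.75 against 10.91, 10.98 and 10.86 (0.23 ± 0.08), without overlap, and Gad2 differed by 0.23 ± 0.09 (0.14 without control 2).

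The list of GABA synthesis and signalling had 14 of 16 members above 0 (median 0.103), and 5 did not overlap, all higher (6.65% of all genes). Gabrb1, a GABA receptor subunit, was at 12.07, 11.96 and 11.99 against 12.13, 12.13 and 12.15 (0.13 ± 0.06). These lists overlap in Gad1, Gad2 and Slc32a1, so they are not separate evidence. Control 2 was the lowest animal of the interneuron list, with a score of -0.26 against -0.01 and -0.03 in the other controls and 0.03 to 0.10 with fluoxetine. Without control 2 the median of the interneuron list was 0.110 and that of the GABA list 0.078, and the GABA median was 0.058 against the repeat control arrays. The interneuron list had a median of 0.148 for stress minus control and of -0.007 for fluoxetine minus stress, which share animals with the comparison. The stress alone animals were uneven in that list, with scores of -0.03, -0.07 and 0.25 in stress 1 to 3.

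Vessel genes lay lower in value with fluoxetine. The list of endothelial and pericyte genes had 17 tested members, 15 of them below 0 (5457 of 11940 over all genes), with a median of -0.108, 5 had an unadjusted p under 0.05, all lower, and 8 did not overlap, all lower (5.02% of all genes), but 0 were called. Rgs5, a regulator of G protein signalling that marks pericytes, was at 11.26, 11.04 and 10.94 in control, 10.59, 10.56 and 10.94 in fluoxetine and 11.14, 10.76 and 11.04 in stress alone (-0.38 ± 0.13 from control). Fluoxetine 1 and 2 were the lowest of the 9 animals, and fluoxetine 3 lay just under the lowest control. Flt1, a VEGF receptor of endothelium, was at 9.57, 9.46 and 9.41 against 9.13, 9.04 and 9.38 (-0.29 ± 0.11), and Cdh5, the adherens junction cadherin of endothelium, at 8.04, 7.97 and 8.05 against 7.53, 7.81 and 7.76 (-0.32 ± 0.14). Kdr, the main VEGF receptor, differed by -0.16 ± 0.09.

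The mean level of the vessel list was 8.74 to 8.80 in the control animals, 8.56 to 8.69 in fluoxetine and 8.71 to 8.84 in stress alone. Leaving out each animal in turn kept 13 to 16 members below 0, with medians from -0.154 to -0.098, and the median was -0.163 against the first and -0.158 against the repeat control arrays. Meningeal genes, which can come with surface vessels, had 7 of 13 members above 0 (median 0.006, and -0.073 without control 2), and astrocyte genes, whose endfeet cover the vessels, were above 0 in all 12 tested members (median 0.065), 10 of 12 against the first control arrays. No vessel gene was called without array weights, and Rgs5 was called with them. The part of the amount of vessel tissue in the samples was not tested.

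The other glial lists differed little. Of 10 oligodendrocyte precursor genes 9 were above 0 (median 0.055, and 0.027 without fluoxetine 3). Olig1, a transcription factor of the oligodendrocyte lineage, was at 9.10, 9.04 and 8.93 in control and 9.45, 9.23 and 9.32 in fluoxetine animals (0.31 ± 0.09, and 0.19 against the first control arrays). Gpr17, a receptor of precursors about to differentiate, was at 9.32, 9.24 and 9.20 against 9.44, 9.52 and 9.41 (0.20 ± 0.07), and 0.02 against the first control arrays. Cspg4, the NG2 proteoglycan of precursors, differed by 0.20 ± 0.10. Stress minus control was 0.22 for Olig1, 0.25 for Gpr17 and 0.09 for Cspg4. Mature oligodendrocyte genes were above 0 in 6 of 13 (median -0.003) and microglial genes in 14 of 17 (median 0.046), and without fluoxetine 3 these medians were -0.022 and 0.005. Gfap, the filament protein of astrocytes, was at 11.29, 11.40 and 11.18 in control, 11.28, 11.39 and 11.41 in fluoxetine and 11.46, 11.62 and 11.55 in stress alone (0.07 ± 0.13 from control).

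Potassium channels held members on both ends. Of 33 tested 21 were above 0 (median 0.050, and 0.006 without fluoxetine 3). Kcnj2, the inward rectifier Kir2.1 that holds the resting potential, was at 8.77, 8.96 and 8.69 in control and 9.24, 9.12 and 9.12 in fluoxetine animals (0.36 ± 0.11), above all control arrays, and with Kcna4 it stood opposite to Kcng1. None of the 33 was called without array weights, and Kcng1 and Kcna4 were called with them.

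In lists of general cell functions fluoxetine 3 differed from the other fluoxetine animals. Cytosolic ribosomal protein genes had 41 of 69 members above 0 (median 0.021), but their score was 0.12 and 0.11 in fluoxetine 1 and 2 and -0.16 in fluoxetine 3, and the median was 0.111 without it. Oxidative phosphorylation genes had 51 of 68 above 0 (median 0.055), with scores of 0.10, 0.06 and -0.08 in fluoxetine 1 to 3 and a median of 0.089 without fluoxetine 3. Heat shock and unfolded protein response genes had 17 of 27 above 0 (median 0.018, and 0.079 without fluoxetine 3), among them Hyou1, a chaperone of the endoplasmic reticulum, at 9.72, 9.72 and 9.66 against 9.95, 10.02 and 9.79 (0.22 ± 0.07). Cholesterol synthesis genes lay lower in 11 of 18 (median -0.036, and -0.018 without fluoxetine 3). Clock genes lay lower in 9 of 16 (median -0.001), with scores of -0.07, -0.05 and 0.09 in fluoxetine 1 to 3 and a median of -0.053 without fluoxetine 3, and among them was Bhlhe40, a repressor of the clock, at 11.19, 11.33 and 11.07 in control and 10.89, 10.91 and 11.18 in fluoxetine animals (-0.20 ± 0.07, and -0.13 without control 2). Genes of cAMP and CREB signalling, of glutamate receptors and of vesicle release had medians of 0.017, 0.027 and 0.030, and of 0.035, 0.019 and 0.007 without control 2. None of these lists held a called gene, and the part of fluoxetine 3 in them was not tested further.

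**Figure D4:**
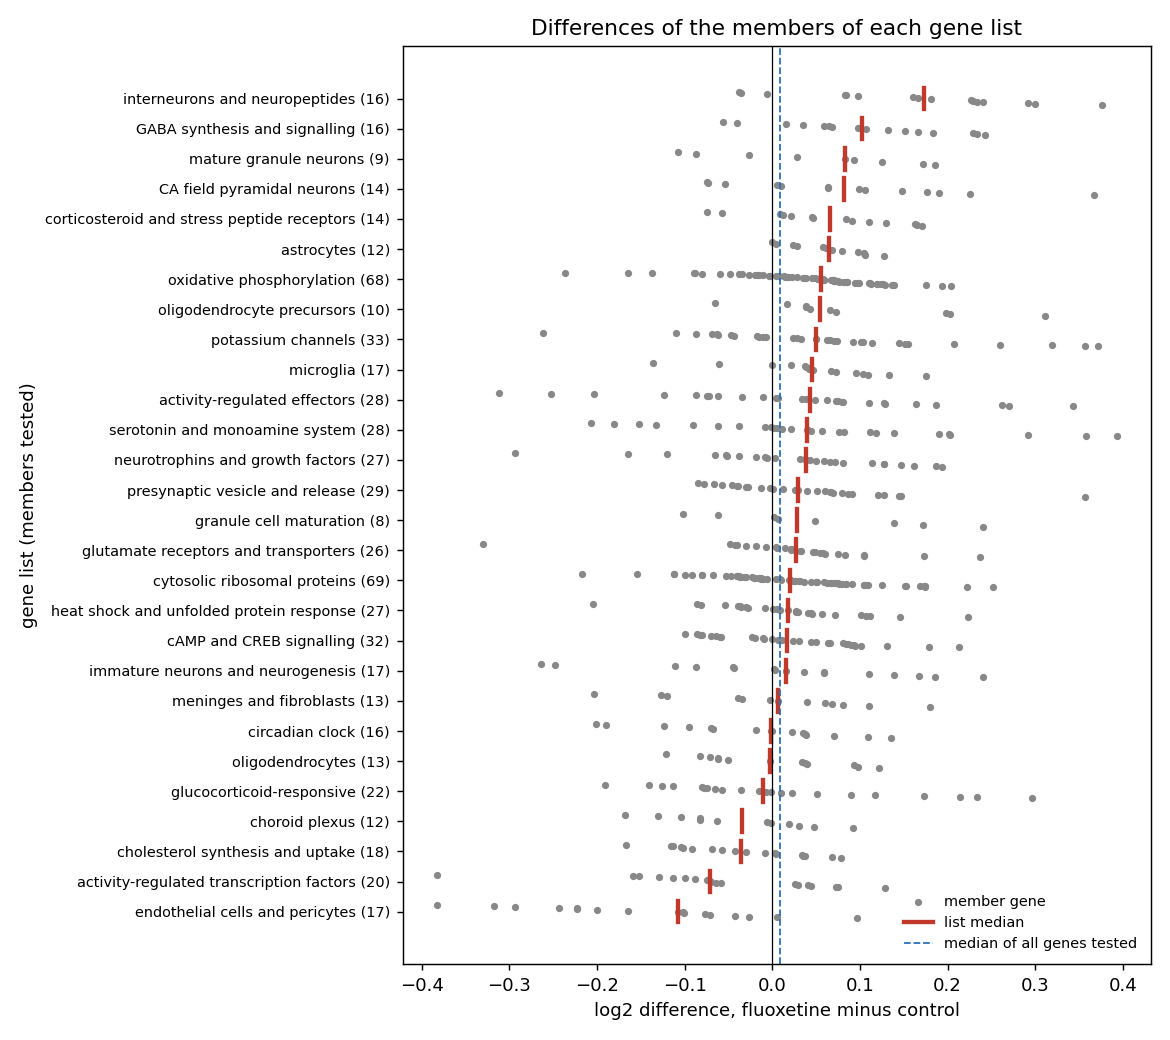
Log2 difference of fluoxetine minus control (horizontal axis) of each tested member of 28 gene lists (rows, with the number of members), as grey points, with the list median as a red bar and the median of all genes tested, 0.009, as a dashed line. The medians run from -0.108 for endothelial cells and pericytes to 0.174 for interneurons and neuropeptides, and no member was called.

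Of the 30 genes of a panel 28 were tested, and 0 were called. Above 0 were 18 (54.3% over all genes), and 6 had an unadjusted p under 0.05 in limma (4.66% over all genes). The panel was chosen with earlier results of these data known, so these counts are a description and no test.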

How the data were processed

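RNA of the dentate gyrus was measured on rat Gene ST arrays. The authors deposited log2 values per probe set. The submitters' processing notes name RMA and Affymetrix Expression Console 1.2; RMA corrects background, makes the arrays' distributions equal and combines probes, which can shrink differences of dim genes. Arrays give no read depth, and the number of animals limits the precision. The values ran from 3.57 to 14.4, and array medians from 7.99 to 8.10. The round in which an array was run and the array's genome build are not given in the sources used here.

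Of 29214 probe sets 15310 had 1 gene symbol in the platform annotation, 323 several and 13581 none, and 15279 matched the RefSeq table of GRCr8 by gene number. A gene was tested with its brightest probe set if the mean of that probe set reached the 25th percentile of all probe sets (a log2 value of 6.62), giving 11940 genes. Of 114 named genes 9 had several probe sets, of opposite sign in Prkacb and Rpl28, and 0 shared all values with another probe set.

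Both arrays of a control animal were averaged. A mean for each of 6 groups was fitted over 18 animals with limma 3.58.1 in R 4.3.3 (12 residual degrees of freedom, eBayes with trend); the scripts were checked on simulated data. Named genes were, per direction, up to 12 called genes without overlap, filled to 10 by smallest p, then a panel of 30 genes and the 3 members with the smallest p of each of 29 lists. Only part of them is printed, and Slc32a1 and Pop5 were added after their values were seen. Members, lists and rule were chosen with earlier results of these data known. Animals with the same number in both groups did not deviate together (r = -0.151, -0.121 and -0.19), and the main fit used no pairing. Deviations from a mean of 3 animals cannot settle whether the numbers pair them. The alternatives varied control arrays, groups, filter, scaling, weights, trend, threshold and animals. Promoter windows come from RefSeq, and motifs were searched as exact letters.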

Additional observations from a re-analysis of the deposited data

How the results depend on the processing

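Genes called in fluoxetine minus control were 0 with every animal left out in turn and in all other alternatives except 2. Against the repeat control arrays alone 78 genes were called, and with array weights 23. In fluoxetine minus stress the count was 0 except with array weights, which called 4 (Dusp1, Kcng1, Nfkbia and Fancd2osl1), and 0 with every animal left out in turn. The number of genes at an unadjusted p under 0.05 in fluoxetine minus control was 344 without control 3 and 891 without fluoxetine 3, and 1678 with array weights and 1430 with all 29214 probe sets. With the replicate number as a replicate block 0 genes were called and 527 had an unadjusted p under 0.05. A filter at the 25th percentile of the probe sets with 1 symbol was added after seeing the data; it left 10804 genes and 0 called.

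Of the 66 genes followed through the alternatives, 54 kept their sign in each of them, and the cause of the other changes of sign was not tested. Against the first control arrays Rpl39 was at 0.149, Nr4a1 at -0.019, Tsc22d3 at -0.0063, Vegfa at 0.047 and Htr1a at -0.013. Against the repeat control arrays Dusp1 was at 0.020, Arc at 0.022, Fkbp5 at 0.044 and Htr4 at 0.026. With array weights Nr4a1 was at -0.023 and Fkbp5 at 0.063. With each animal left out in turn the range was -0.204 to 0.010 for Dusp1, -0.045 to 0.140 for Nr4a1, -0.181 to 0.071 for Arc, -0.178 to 0.093 for Fkbp5, -0.021 to 0.134 for Tsc22d3, -0.007 to 0.0997 for Nr3c1, -0.022 to 0.120 for Htr1a, -0.030 to 0.835 for Htr2a, -0.142 to 0.035 for Htr4 and -0.010 to 0.220 for Dcx. With all animals and arrays the 95% confidence interval of each of these genes except Rpl39 included 0.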
